A study of Mus musculus with 6 samples.

Results

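Skeletal muscle lineage and sarcomere genes were followed in RNA-seq libraries of chondrocytes from the mouse, which build the matrix of cartilage. The set was chosen by gene symbol and lists 37 genes, from the transcription factors that commit cells to muscle to the proteins of the contractile unit. The deposited table lists 26969 genes, of which 36 are members, and Pax7, the factor of muscle stem cells, was not analysed here. Both groups are wild-type chondrocytes with 3 libraries each. The labels contradict each other on which group received mitochondria, which the series title traces to osteocytes: the description entries name mAC_Mito as that group, whereas the titles and treatment entries give mAC mitochondria and mAC_Mito vehicle. The groups carry the names of the descriptions, mAC_Mito and mAC, a difference is always mAC_Mito minus mAC, and none is read as what mitochondria did. The sources used here do not give the age, the site of the cartilage or the culture time. They do not say either whether the libraries of a group are separate cultures or animals, so a p-value covers the spread among these 6 libraries, which may be technical.

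In skeletal muscle, the basic helix-loop-helix factors MyoD, Myf5, myogenin and MRF4 drive precursor cells to withdraw from the cycle, fuse and switch on contractile genes. The contractile unit, the sarcomere, slides thick filaments of myosin along thin filaments of actin, and troponin on the thin filament makes this depend on calcium. Sarcomere proteins come as fast, slow, cardiac and embryonic isoforms from separate genes, so that the mixture of isoforms describes the kind and stage of a muscle fibre. Cartilage is not known for this machinery, and smooth-muscle actin, which many cultured cells make, is a different gene.

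Libraries held 59116068 to 68378213 counts. The cartilage collagen gene Col2a1 was at 951 to 1662 FPKM (counts per kilobase of gene model, scaled to library depth), and none of the 12 chondrocyte markers was at 0 in the table. The extraction text of the labels names an adipose type as the source of the RNA, against the chondrocyte entries, and all 9 adipocyte markers had counts too. Among these, adiponectin (Adipoq) was at 17.6 to 20.02 FPKM in mAC_Mito and 12.4 to 21.4 FPKM in mAC, and the fatty acid carrier Fabp4 was at 39.4 to 53.8 FPKM in mAC_Mito and 28.1 to 49.8 FPKM in mAC, so RNA of both marker sets was present. The 36 muscle genes together took 0.0276%, 0.0216% and 0.0262% of all counts in mAC_Mito 1, 2 and 3, and 0.0168%, 0.0221% and 0.0263% in mAC 1, 2 and 3. Their FPKM summed to 125, 104 and 122 in mAC_Mito and to 71.9, 103 and 126 in mAC, with mAC 1 the lowest library, mAC 2 just below the range of mAC_Mito and mAC 3 just above it. In each library 34 or 35 of the 36 genes had at least 1 count. In bulk RNA, fewer muscle-type cells and less of these RNAs per cell cannot be told apart.

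No member passed the test between the groups across all genes. edgeR's quasi-likelihood test, run on 17645 genes that passed a filter on low counts, called 0 of the 34 members that passed it, at a Benjamini-Hochberg adjusted p under 0.05, where 0.0113% of all genes were called (0.00567% higher and 0.00567% lower). DESeq2 and limma also called 0, with 3 members at an unadjusted p under 0.05 in DESeq2 and 1 in limma on log2(FPKM + 1). Over all genes this was 708 of 26953 in DESeq2, run without that filter, and 532 of 17645 in this limma fit. In edgeR there were 2 such members, Myh8 and Tnnc2, both higher in mAC_Mito. This is 5.88% of the members tested, against 3.19% of all genes (2.1% higher and 1.09% lower). For these 2 genes alone every mAC_Mito library exceeded every mAC library, again 5.88%, against 8.31% of all genes without overlap (3.93% higher and 4.38% lower). The log2 fold change lay above 0 for 27 of the 34 (79.4%, against 50.4% of all genes), with a median of 0.16 against 0.0016 over all genes, on a log2 scale. Without mAC 1 this count was 21 of 35 with a median of 0.069, and without mAC_Mito 1 it was 19 of 34 with a median of 0.036. Some marker lists of other cells were skewed too. With all libraries, 9 of 9 adipocyte markers (median 0.16) and 8 of 8 macrophage markers (median 0.34) lay above 0. For chondrocyte markers this was 8 of 12, for smooth muscle markers 5 of 7 and for tendon markers 2 of 6. The smooth muscle list includes desmin (Des), which is also a member and lay above 0.

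**Figure D1:**
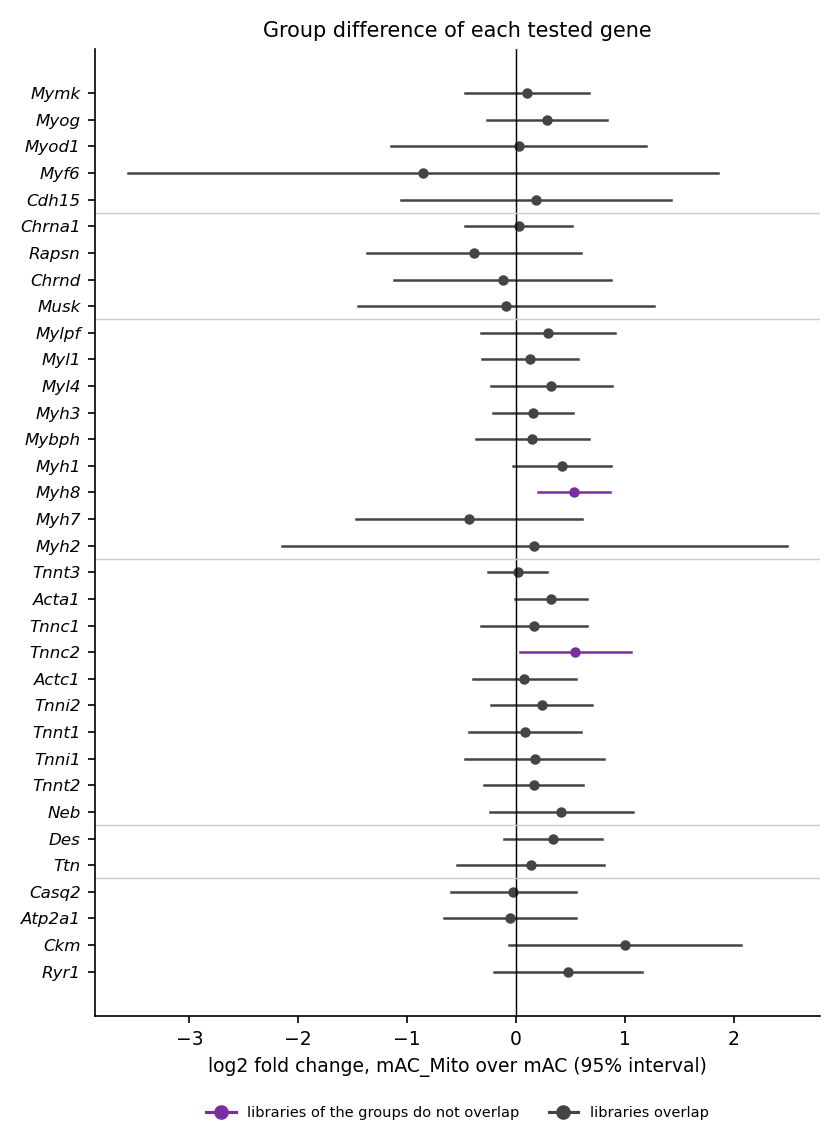
Log2 fold change, mAC_Mito over mAC, of each tested skeletal muscle gene (point) with its 95% interval (line), from edgeR's quasi-likelihood fit with n = 3 libraries per group; grey rules separate the roles in the order regulators and fusion, neuromuscular junction, thick filament, thin filament, scaffold, calcium and energy. Most points lie right of 0, and the intervals of Myh8 and Tnnc2 alone, in purple, leave 0 out before adjustment for the genes tested.

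The members covered more than 3 orders of magnitude per length. Mean FPKM was at least 5 for 6 genes, between 1 and 5 for 10, between 0.1 and 1 for 11 and under 0.1 for 9. The highest were the light chain Mylpf at 22.0, the troponin Tnnt3 at 16.2, the actin Acta1 at 16.2 and the light chain Myl1 at 12.2, and the lowest were Myf5 at 0.0119, the giant protein gene Ttn at 0.0153, Myh4 at 0.019 and Myh2 at 0.0205 (all mean FPKM over 6 libraries). Mylpf was above 88.4% and myogenin above 39.5% of all tested genes. Genes with the longest messages (Ttn, Neb, Ryr1) sat at the low end on this per-length scale, although they carried 82 to 179, 92 to 174 and 57 to 108 counts per library.

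**Figure D2:**
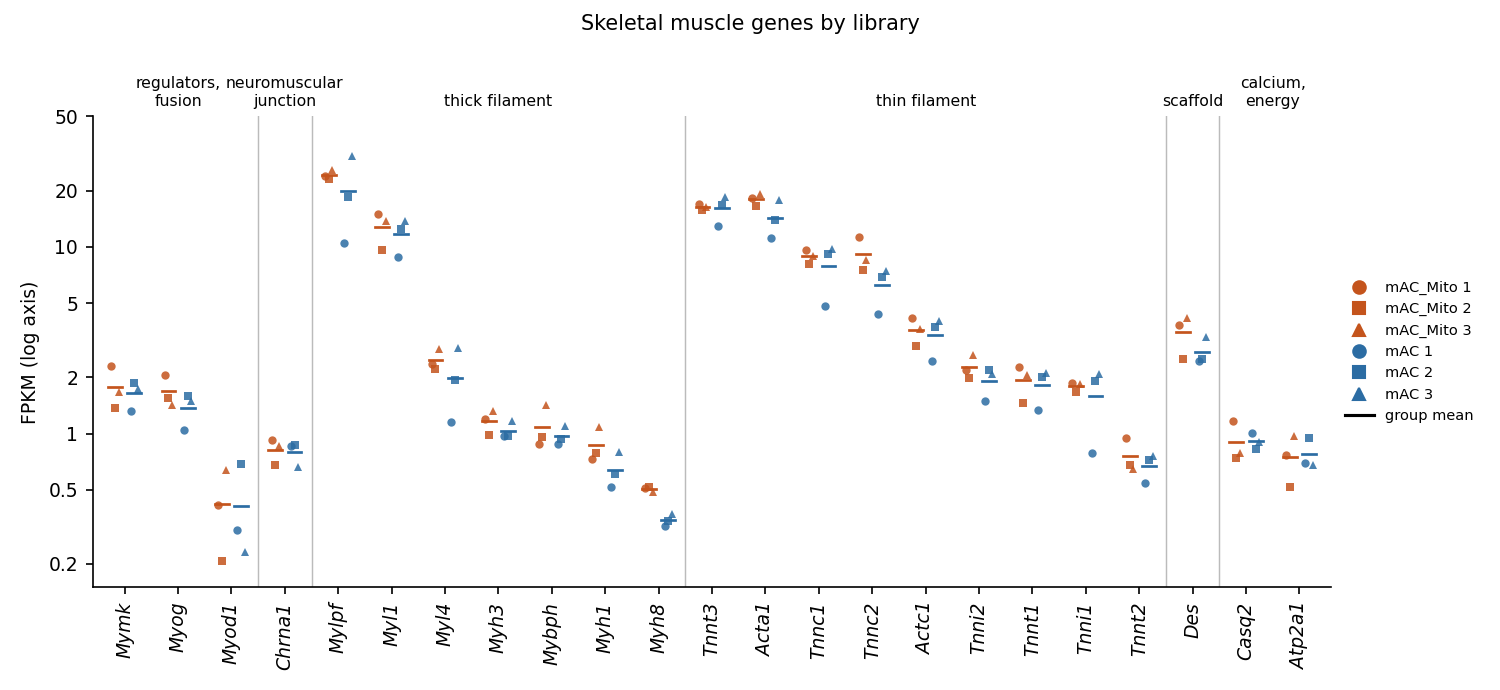
FPKM (log axis) of the 23 members with a mean of at least 0.4 FPKM, by role; each symbol is 1 library (circle 1, square 2, triangle 3), orange for mAC_Mito and blue for mAC, and the bar is the group mean of 3 libraries. The blue circle, mAC 1, is lowest for most of the filament genes, and the orange and blue symbols stand fully apart for Myh8 and Tnnc2.

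Start regions are shown for 6 genes on which the description below turns: Mylpf, the most abundant member, and Acta1, the striated muscle actin; Myh8 and Tnnc2, the 2 members without overlap between groups; Myog, the regulator with the highest level; and Chrna1, the receptor subunit. Each run is the 250 bases before a RefSeq transcription start on GRCm38.p6, 5′ to 3′ on the strand of the gene. Capitals mark CANNTG, the E-box letters to which MyoD-type factors are known to bind. RefSeq starts can differ from the gene bounds of the deposited table. There Mylpf spans 127208890 to 127214288 and Tnnc2 spans 164777161 to 164779967. The Mylpf window thus lies inside these bounds, and the Tnnc2 window mostly inside.
Mylpf (chr7:127211358-127211607, plus strand): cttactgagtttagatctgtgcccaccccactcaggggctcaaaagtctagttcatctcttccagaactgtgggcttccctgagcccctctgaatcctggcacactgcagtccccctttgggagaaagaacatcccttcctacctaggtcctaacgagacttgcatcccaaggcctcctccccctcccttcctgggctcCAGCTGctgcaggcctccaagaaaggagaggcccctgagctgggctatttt
Acta1 (chr8:123894776-123895025, minus strand): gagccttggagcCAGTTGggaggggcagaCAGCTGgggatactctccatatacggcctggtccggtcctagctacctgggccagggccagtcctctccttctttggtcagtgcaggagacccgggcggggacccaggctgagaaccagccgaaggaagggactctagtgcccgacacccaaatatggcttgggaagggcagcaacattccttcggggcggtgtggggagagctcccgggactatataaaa
Myh8 (chr11:67276874-67277123, plus strand): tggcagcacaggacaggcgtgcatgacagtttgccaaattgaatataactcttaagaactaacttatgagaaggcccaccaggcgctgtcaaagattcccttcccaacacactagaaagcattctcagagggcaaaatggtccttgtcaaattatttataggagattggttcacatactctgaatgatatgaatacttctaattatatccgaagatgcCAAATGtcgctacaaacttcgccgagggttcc
Tnnc2 (chr2:164779735-164779984, minus strand): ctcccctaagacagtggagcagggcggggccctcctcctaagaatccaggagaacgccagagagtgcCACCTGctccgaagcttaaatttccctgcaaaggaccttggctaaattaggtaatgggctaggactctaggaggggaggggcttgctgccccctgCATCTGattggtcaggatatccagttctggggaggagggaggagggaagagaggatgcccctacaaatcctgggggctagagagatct
Myog (chr1:134289754-134290003, plus strand): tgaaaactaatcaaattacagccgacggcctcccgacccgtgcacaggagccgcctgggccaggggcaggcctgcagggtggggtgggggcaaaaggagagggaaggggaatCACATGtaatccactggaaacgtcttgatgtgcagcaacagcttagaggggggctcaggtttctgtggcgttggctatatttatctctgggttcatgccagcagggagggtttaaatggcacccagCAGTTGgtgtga
Chrna1 (chr2:73580339-73580588, minus strand): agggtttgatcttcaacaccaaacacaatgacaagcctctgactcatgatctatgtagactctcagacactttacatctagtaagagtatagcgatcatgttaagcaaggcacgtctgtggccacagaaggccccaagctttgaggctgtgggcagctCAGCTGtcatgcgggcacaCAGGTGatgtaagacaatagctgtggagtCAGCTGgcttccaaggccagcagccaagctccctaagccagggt

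Of the 37 listed genes 29 matched the RefSeq promoter table, with 32 start sites. CANNTG, which reads the same on both strands, was in 25 of these 32 windows (78.1%), against 66.2% of all 32851 windows of that length. Its form CAGCTG, counted within the first motif as well, was in 13 of 32 (40.6%), against 13% of all. The Chrna1 window holds 3 E-boxes, of which 2 are CAGCTG. The windows of Mylpf and Acta1 hold 1 CAGCTG each, and those of Myh8, Tnnc2 and Myog hold none. The CArG box, the letters bound by serum response factor, was in 3 windows, those of Acta1, Actc1 and Myh4 (9.38%, against 1.47% of all). The MEF2 motif was searched in a strict form only, which was in 1 window, that of Ttn (3.12%, against 0.508% of all). Looser forms were not searched, so windows without this match, such as that of Myog, may still hold a MEF2 site. TATAAA was in 8 windows (25.0%, against 12.4% of all). The CArG box, the MEF2 form and TATAAA were searched on both strands, with overlaps counted. These are matches of letters in a window and not measurements of binding.

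Among the regulators, myogenin (Myog), which drives terminal differentiation, was at 2.06, 1.55 and 1.43 FPKM in mAC_Mito 1, 2 and 3, against 1.04, 1.59 and 1.49 FPKM in mAC 1, 2 and 3. The highest value was in mAC_Mito 1 and the lowest in mAC 1, and the other 4 libraries lay between 1.43 and 1.59. MyoD (Myod1), which commits cells to the lineage, was at 0.413, 0.207 and 0.637 FPKM in mAC_Mito 1, 2 and 3, against 0.306, 0.683 and 0.233 FPKM in mAC 1, 2 and 3, highest in mAC 2 and lowest in mAC_Mito 2, so the groups overlapped over their whole range. Myf5, an early determination factor, had 0, 3 and 8 counts in mAC_Mito 1, 2 and 3, against 0, 0 and 0 counts in mAC 1, 2 and 3. Its count of 0 in 4 libraries allows up to 3 counts each, so no fold is given. Myf6 (MRF4), a factor of maturing fibres, had 4, 18 and 3 counts in mAC_Mito, against 33, 0 and 11 in mAC, with no order by group.

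Myomaker (Mymk), the membrane protein needed for myoblast fusion, was at 2.29, 1.37 and 1.66 FPKM in mAC_Mito, against 1.32, 1.87 and 1.74 FPKM in mAC, highest in mAC_Mito 1 and otherwise without order by group. Its partner myomixer (Mymx), which is not a member, was at 0.071, 0.104 and 0.198 FPKM in mAC_Mito, against 0, 0.227 and 0.185 FPKM in mAC. M-cadherin (Cdh15), which joins myoblasts and satellite cells, had 30, 16 and 25 counts in mAC_Mito, against 11, 35 and 19 in mAC. The log2 fold changes in edgeR were 0.29 for Myog (95% interval -0.26 to 0.84), 0.025 for Myod1 (-1.15 to 1.19), 0.10 for Mymk (-0.47 to 0.67) and 0.19 for Cdh15 (-1.05 to 1.43). Without mAC_Mito 1 the value for Myog was 0.071, and without mAC_Mito 3 it was 0.40. None of the 5 regulators and fusion genes tested passed.

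At the neuromuscular junction, the acetylcholine receptor alpha subunit Chrna1 was the most abundant of 4 members, at 0.926, 0.675 and 0.854 FPKM in mAC_Mito 1, 2 and 3, against 0.859, 0.864 and 0.66 FPKM in mAC 1, 2 and 3. The groups covered almost the same range. The delta subunit Chrnd had 73, 29 and 54 counts in mAC_Mito, against 30, 73 and 73 in mAC. The receptor kinase Musk, which organises the junction, had 34, 26 and 19 counts in mAC_Mito, against 8, 34 and 46 in mAC. Rapsyn (Rapsn), which clusters the receptors, had 27, 30 and 29 counts in mAC_Mito, against 47, 30 and 36 in mAC. Musk, Chrnd and Rapsn put their extremes in different libraries: Musk was lowest and Rapsn highest in mAC 1. The log2 fold changes were 0.025, -0.12, -0.092 and -0.38 for Chrna1, Chrnd, Musk and Rapsn, and 0 of 4 passed.

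In the thick filament, the regulatory light chain of fast fibres, Mylpf, was at 23.9, 23 and 25.8 FPKM in mAC_Mito 1, 2 and 3, against 10.5, 18.5 and 30.5 FPKM in mAC 1, 2 and 3. The 3 mAC libraries spread over almost 3-fold and enclosed those of mAC_Mito. It gave a log2 fold change of 0.29 (standard error 0.28), which was 0.017 without mAC 1 and 0.70 without mAC 3. Of the essential light chains, Myl1, the fast form, was at 15, 9.6 and 13.8 FPKM in mAC_Mito, against 8.83, 12.4 and 13.8 FPKM in mAC. Myl4, the embryonic and atrial form, was at 2.37, 2.23 and 2.85 FPKM in mAC_Mito, against 1.16, 1.92 and 2.86 FPKM in mAC. By FPKM mAC 1 was the lowest library for both, and by scaled counts for Myl4 alone. Mybph, a myosin-binding protein, was at 0.879, 0.964 and 1.42 FPKM in mAC_Mito, against 0.878, 0.929 and 1.1 FPKM in mAC, highest in mAC_Mito 3. Exons of Adora1 on the opposite strand cover 49.9% of those of Mybph. Adora1 had 11 to 40 counts per library, against 145 to 231 for Mybph.

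Of the myosin heavy chains, the motor proteins, the perinatal gene Myh8 had the lowest p of the 34 members. It was at 0.511, 0.52 and 0.484 FPKM in mAC_Mito 1, 2 and 3, against 0.32, 0.34 and 0.373 FPKM in mAC 1, 2 and 3. Every mAC_Mito library lay above every mAC library, and its raw data were 459, 415 and 396 counts in mAC_Mito, against 266, 316 and 314 in mAC. Its means were 0.505 ± 0.0184 FPKM in mAC_Mito and 0.344 ± 0.0268 FPKM in mAC (SD, n = 3 each), a log2 fold change of 0.53 (standard error 0.15) with a 95% interval of 0.20 to 0.86. The Benjamini-Hochberg adjusted p of edgeR's quasi-likelihood test was 0.9999, so it did not pass over the 17645 genes. With each library left out in turn the log2 fold change ran from 0.49 to 0.57. Myh8 lies at chromosome 11, 67277124 to 67308634 on the plus strand (GRCm38), in a row with Myh3, Myh2, Myh1 and Myh4, whose messages are close in sequence. How reads that fit several of them were counted was not given in the sources used here.

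The other myosins did not separate the groups. The embryonic gene Myh3 was at 1.2, 0.977 and 1.32 FPKM in mAC_Mito, against 0.971, 0.972 and 1.16 FPKM in mAC. Myh1, the gene of fast 2X fibres, was at 0.734, 0.787 and 1.08 FPKM in mAC_Mito, against 0.514, 0.611 and 0.796 FPKM in mAC. For Myh1, a log2 fold change of 0.42 (standard error 0.20) and a 95% interval of -0.029 to 0.87 included 0. mAC_Mito 3 was the highest library, and without it the log2 fold change was 0.24, against 0.57 without mAC 3. The slow and cardiac gene Myh7 had 49, 41 and 27 counts in mAC_Mito, against 32, 42 and 88 in mAC. Myh2 and Myh4 were near the limit of detection. Myh2 (2A fibres) had 27, 0 and 9 counts in mAC_Mito, against 13, 12 and 7 in mAC. Myh4 (2B fibres), which did not pass the filter, had 21, 0 and 0 counts in mAC_Mito, against 7, 7 and 17 in mAC.

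The same 3 heavy chain genes led in every library. By FPKM the share of Myh3 among the 6 heavy chains was 44.1% ± 2.29 in mAC_Mito and 48.5% ± 2.58 in mAC (SD, n = 3 each), with the highest mAC_Mito library at 46.0% and the lowest mAC library at 46.1%. The share of Myh1 was 32.8% ± 4.38 in mAC_Mito and 29.6% ± 2.25 in mAC, and that of Myh8 was 19.4% ± 2.85 in mAC_Mito and 16.2% ± 1.21 in mAC, both with overlapping groups. Myh7, Myh2 and Myh4 supplied the remainder, with Myh7 between 1.49% and 5.58%. These shares depend on the gene length that underlies FPKM, which tracked the union of all annotated exons. That union is 1.91 times the coding transcript for Myh8 and 6.46 times for the troponin Tnnt2. With counts divided by the length of the coding transcript, a choice added after seeing the data, Myh8 came to 30.7% in mAC_Mito and 26.2% in mAC. On that scale Myh1 came to 28.5% in mAC_Mito and 26.3% in mAC, close to Myh8, and Myh3 to 36.8% in mAC_Mito and 41.2% in mAC, the highest mean share in both groups.

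**Figure D3:**
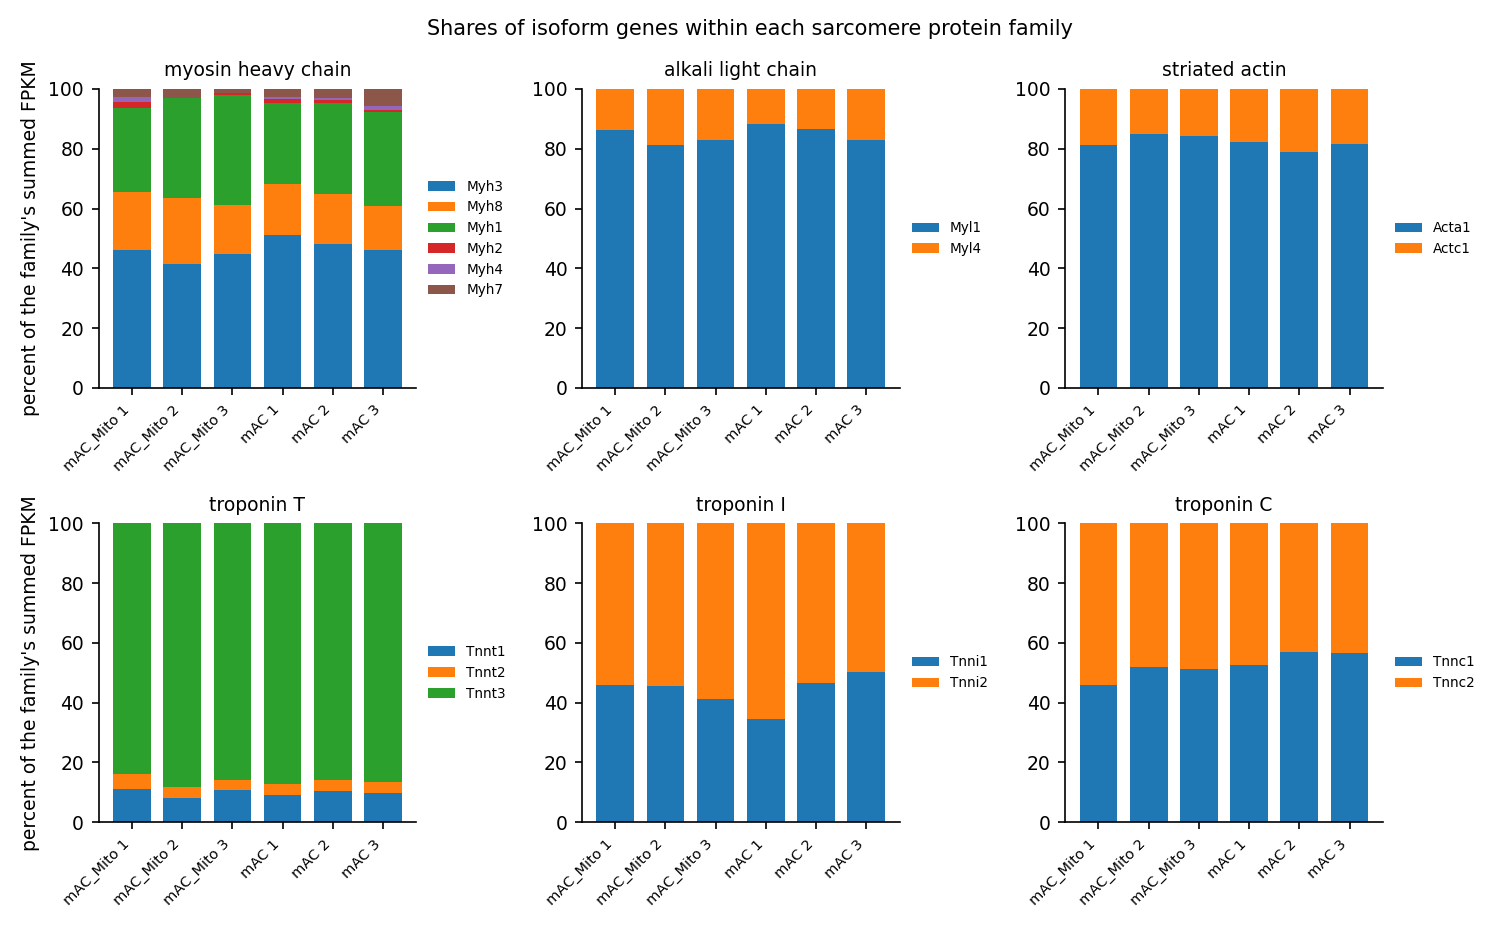
Percent of each isoform gene in the summed FPKM of its family (vertical axis) in each library (horizontal axis, mAC_Mito left of mAC), for 6 families of sarcomere proteins; each bar is 1 library. Acta1 holds 78.9% to 84.9% of striated actin and Tnnt3 84.0% to 88.1% of troponin T, while troponin I ranges most, with Tnni1 at 34.7% in mAC 1 and 50.2% in mAC 3.

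In the thin filament, skeletal actin (Acta1) was at 18.2, 16.6 and 19.3 FPKM in mAC_Mito 1, 2 and 3, against 11.2, 13.9 and 17.9 FPKM in mAC 1, 2 and 3. The 2 lowest of the 6 values were mAC 1 and mAC 2, and mAC 3 lay inside the range of mAC_Mito. The difference, a log2 fold change of 0.32 (standard error 0.15) with a 95% interval of -0.0044 to 0.65, did not pass. Cardiac actin (Actc1), which embryonic skeletal muscle also makes, was at 4.18, 2.95 and 3.63 FPKM in mAC_Mito, against 2.44, 3.72 and 4.01 FPKM in mAC. Actc1 was lowest in mAC 1 and next lowest in mAC_Mito 2. Actins are close in sequence, and smooth-muscle actin (Acta2) was at 525 to 609 FPKM in mAC_Mito and 534 to 599 FPKM in mAC, and the share of its reads assigned to Acta1 or Actc1 was not tested.

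Troponin, the calcium switch, was measured with all 3 of its subunits. The tropomyosin-binding subunit of fast fibres, Tnnt3, was at 16.9, 15.8 and 16.3 FPKM in mAC_Mito 1, 2 and 3, against 12.9, 16.8 and 18.5 FPKM in mAC 1, 2 and 3. It varied least of the members with a mean FPKM of at least 1, by 1.28-fold in scaled counts between the highest and the lowest library, and its log2 fold change of 0.015 had the narrowest 95% interval of these (-0.26 to 0.29). The slow form Tnnt1 was at 2.27, 1.46 and 2.06 FPKM in mAC_Mito, against 1.34, 2.01 and 2.12 FPKM in mAC. The cardiac and embryonic form Tnnt2 was at 0.946, 0.682 and 0.647 FPKM in mAC_Mito, against 0.54, 0.724 and 0.758 FPKM in mAC, highest in mAC_Mito 1 and lowest in mAC 1. The slow inhibitory subunit Tnni1 was at 1.87, 1.66 and 1.84 FPKM in mAC_Mito, against 0.789, 1.91 and 2.09 FPKM in mAC, where mAC 1 stood below the other 5 libraries. The fast form Tnni2 was at 2.2, 1.98 and 2.64 FPKM in mAC_Mito, against 1.49, 2.19 and 2.07 FPKM in mAC. The calcium-binding subunit Tnnc1 (slow and cardiac) was at 9.59, 8.11 and 8.99 FPKM in mAC_Mito, against 4.85, 9.2 and 9.7 FPKM in mAC, again with mAC 1 lowest.

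The fast calcium-binding subunit Tnnc2 was at 11.3, 7.55 and 8.54 FPKM in mAC_Mito 1, 2 and 3, against 4.34, 6.91 and 7.46 FPKM in mAC 1, 2 and 3. No mAC library reached the lowest mAC_Mito library, although mAC 3 came within 0.1 FPKM of it. The log2 fold change of 0.55 (standard error 0.23) had a 95% interval of 0.038 to 1.05, and the Benjamini-Hochberg adjusted p of edgeR's quasi-likelihood test was 0.9999. Without mAC_Mito 1 it was 0.32 and without mAC 1 it was 0.38. Exons of Ube2c, a ubiquitin-conjugating enzyme of mitosis on the opposite strand, cover 74.0% of the exon bases of Tnnc2, at chromosome 2, 164777161 to 164779967. Ube2c was at 34.1, 24.6 and 26.9 FPKM in mAC_Mito, against 42.5, 38.9 and 27.5 FPKM in mAC, a log2 fold change of -0.37 (standard error 0.20), opposite in sign to that of Tnnc2. No source used here says whether reads were counted by strand, so reads from the 2 genes cannot be told apart where they overlap.

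Fast and slow troponins were present side by side. By FPKM the share of Tnnt3 in troponin T was 86% ± 2.04 in mAC_Mito and 86.6% ± 0.659 in mAC (SD, n = 3 each). The share of Tnni2 in troponin I was 55.8% ± 2.68 in mAC_Mito and 56.2% ± 8.11 in mAC, where the wide spread in mAC comes with 65.3% in mAC 1. The share of Tnnc2 in troponin C was 50.3% ± 3.19 in mAC_Mito and 44.6% ± 2.38 in mAC, without overlap between the groups, as for the level of Tnnc2 itself. Per coding transcript, the share of Tnnt2 in troponin T was 14.8% in mAC_Mito and 13.8% in mAC, against 3.97% ± 0.668 in mAC_Mito and 3.64% ± 0.0781 in mAC by FPKM. On that scale Tnni1 held 52.4% in mAC_Mito and 51.8% in mAC of troponin I, more than Tnni2, and Tnnc2 held 44.5% in mAC_Mito and 38.9% in mAC of troponin C. Nebulin (Neb), the ruler along the thin filament, had 92, 165 and 174 counts in mAC_Mito, against 98, 110 and 123 in mAC, with its 2 highest values in mAC_Mito and its lowest there too.

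The scaffold members were desmin (Des), the intermediate filament that links sarcomeres, and titin (Ttn), the spring that spans them. Desmin was at 3.82, 2.51 and 4.17 FPKM in mAC_Mito 1, 2 and 3, against 2.45, 2.52 and 3.27 FPKM in mAC 1, 2 and 3. Libraries 1 and 3 of mAC_Mito were highest, and mAC_Mito 2 was level with mAC 1 and mAC 2. Desmin is also made by smooth muscle and some fibroblasts. Titin had 110, 135 and 158 counts in mAC_Mito, against 82, 117 and 179 in mAC, and the 95% intervals of both log2 fold changes (-0.11 to 0.79 and -0.54 to 0.81) included 0.

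Among the genes of calcium handling and energy, the cardiac and slow calsequestrin Casq2 was at 1.17, 0.74 and 0.791 FPKM in mAC_Mito 1, 2 and 3, against 1.01, 0.821 and 0.896 FPKM in mAC 1, 2 and 3. The calcium pump of fast fibres, Atp2a1, was at 0.766, 0.516 and 0.975 FPKM in mAC_Mito, against 0.695, 0.948 and 0.68 FPKM in mAC. The groups overlapped for both, and exons of Rabep2 on the opposite strand cover 21.9% of those of Atp2a1. Rabep2 had 972 to 1454 counts per library, against 123 to 260 for Atp2a1. The ryanodine receptor Ryr1, the calcium release channel, had 78, 108 and 85 counts in mAC_Mito, against 59, 57 and 82 in mAC. Muscle creatine kinase (Ckm), which buffers ATP, had 85, 61 and 42 counts in mAC_Mito, against 25, 19 and 51 in mAC. mAC_Mito 1 and 2 were highest for Ckm, and mAC 3 lay above mAC_Mito 3. This was the largest log2 fold change of the 34, 1.0 with a standard error of 0.48 and a 95% interval of -0.064 to 2.07, and with 1 library left out it ran from 0.70 to 1.5. For comparison, the 95% interval reached a median of 0.50 to either side, on the log2 scale, over the 16 members with a mean FPKM of at least 1.

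Libraries differed from each other within both groups. On the scale of depth-normalised counts after TMM scaling (CPM), each library was given a level, its mean deviation in log2 CPM from the 6-library mean over the 34 tested members. It was 0.26, -0.14 and 0.12 in mAC_Mito 1, 2 and 3 and -0.26, -0.088 and 0.11 in mAC 1, 2 and 3, so the groups overlapped. mAC 1 was the lowest library for 15 of 34 members (44.1%, against 24% of all genes), and mAC_Mito 1 the highest for 15 (44.1%, against 14.3%). mAC_Mito 2 was lowest for 10 (29.4%, against 17.9%). FPKM, which have no TMM scaling, were lower than scaled CPM in mAC 1 by a median of 0.098 on the log2 scale relative to the mean of all libraries, and there mAC 1 was the lowest library for 23 of 34 members (67.6%, against 35.0% of all genes). By scaled CPM, in the thin filament mAC 1 was lowest for 8 of 10 and in the thick filament for 3 of 9. Among the regulators it was lowest for 2 of 5, and among the genes of calcium and energy for 0 of 4.

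**Figure D4:**
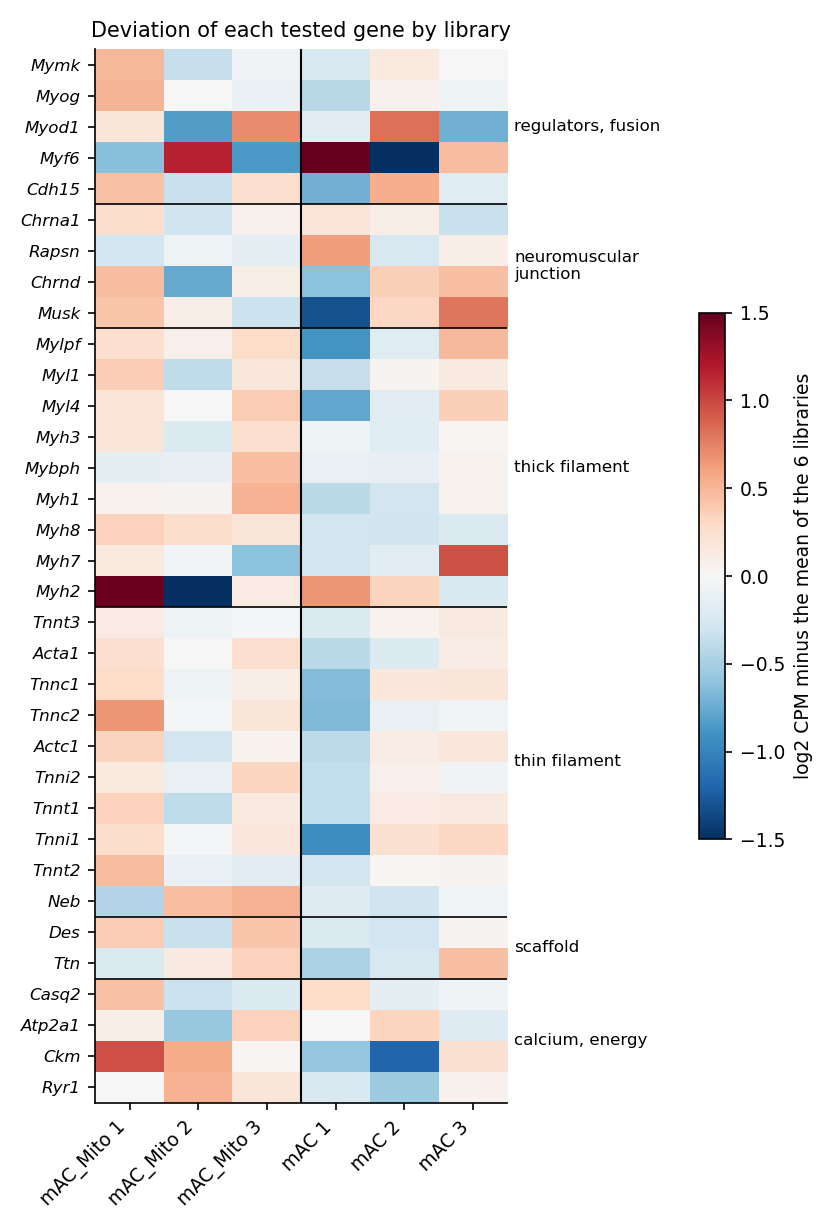
Log2 CPM of each tested member minus its mean over the 6 libraries (colour, limited to 1.5 to either side), with libraries as columns, mAC_Mito left of mAC, and members as rows by role. The column of mAC 1 is blue through the thin filament genes, mAC_Mito 1 is mostly red, and the strongest colours belong to genes with few counts such as Myf6 and Myh2.

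Other measures of the libraries were read beside the muscle level, and not all of them followed it. mRNAs of the mitochondrial genome took 5.6%, 2.91% and 3.4% of counts in mAC_Mito 1, 2 and 3 and 7.31%, 4.71% and 3.13% in mAC 1, 2 and 3, so that mAC 1 and mAC_Mito 1, at opposite ends of the muscle level, had the 2 highest shares. The 9 adipocyte markers, genes of fat cells, summed to 118, 99.0 and 120.2 FPKM in mAC_Mito and 71.6, 106 and 115 FPKM in mAC, again lowest in mAC 1. The 8 macrophage markers summed to 79.4, 67.1 and 110.2 FPKM in mAC_Mito and 60.5, 72.4 and 77.1 FPKM in mAC. The 8 smooth muscle markers, led by Acta2, summed to 728 to 828 FPKM in mAC_Mito and 748 to 802 FPKM in mAC, with mAC 1 at 794 FPKM. The 12 chondrocyte markers summed to 1827, 2850 and 2615 FPKM in mAC_Mito and 1973, 2005 and 2318 FPKM in mAC. Their sum was lowest in mAC_Mito 1, the library with the highest muscle level. Markers of tendon cells summed to 443 to 493 FPKM in mAC_Mito and 413 to 544 FPKM in mAC, those of endothelium to 1.38 to 1.53 FPKM in mAC_Mito and 1.42 to 1.62 FPKM in mAC, and those of nerve and Schwann cells to 43.3 to 51.1 FPKM in mAC_Mito and 44.6 to 47.6 FPKM in mAC. The part of these in the muscle values was not tested.

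**Figure D5:**
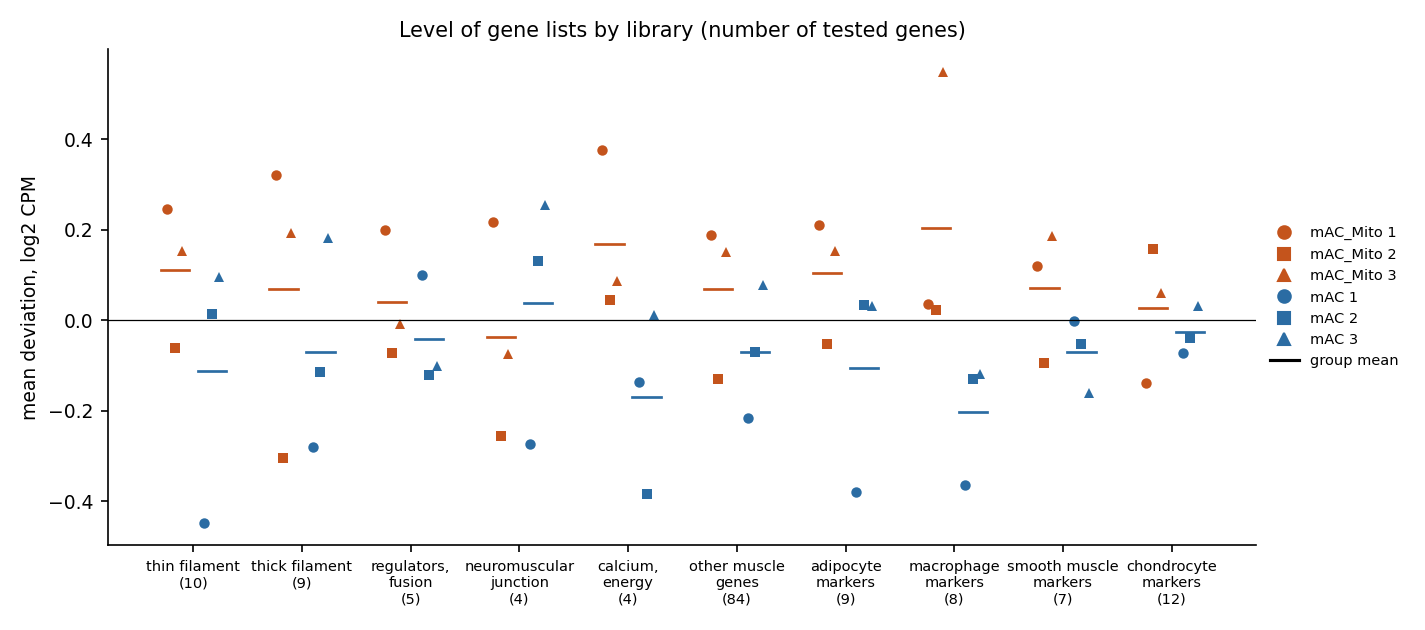
Mean deviation of log2 CPM from the 6-library mean (vertical axis) for gene lists (horizontal axis, with the number of tested genes), 1 symbol per library and a bar for the group mean, orange mAC_Mito left of blue mAC. mAC 1 (blue circle) is lowest for the thin filament, the neuromuscular junction, the other muscle genes, the adipocyte and the macrophage markers. It is above 0 for regulators and fusion, and near 0 for the smooth muscle and chondrocyte markers.

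Heart muscle shares many sarcomere genes, so its own markers were read beside the members. Of 9 cardiomyocyte markers 7 were in the table, and they summed to 0.326 to 0.673 FPKM in mAC_Mito and 0.381 to 0.729 FPKM in mAC. The cardiac myosin Myh6 had 0, 6 and 6 counts in mAC_Mito, against 2, 1 and 9 in mAC. The cardiac ryanodine receptor Ryr2 had 0, 0 and 3 counts in mAC_Mito, against 0, 0 and 4 in mAC. The heart transcription factor Nkx2-5 had 6, 0 and 0 counts in mAC_Mito, against 0, 0 and 0 in mAC. These defining genes were at or near 0 in every library. The natriuretic peptide gene Nppb was the highest of the list, at 0.301, 0.136 and 0.327 FPKM in mAC_Mito, against 0.362, 0.486 and 0.477 FPKM in mAC.

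Another 98 genes of the muscle programme, listed by the same roles, were tested alongside. Of these 96 were in the table, 84 were tested and 0 were called by edgeR, DESeq2 or limma. Among them 2 had an unadjusted p under 0.05, both higher in mAC_Mito (2.38%, against 2.1% of all genes). Groups did not overlap for 3 genes higher in mAC_Mito (3.57%, against 3.93% of all genes) and 1 lower (against 4.38% of all genes). The lower 1 was alpha-sarcoglycan (Sgca), with 14, 0 and 19 counts in mAC_Mito, against 20, 51 and 30 in mAC. Its log2 fold change of -1.55 was the lowest of the 84 (95% interval -3.56 to 0.46). Log2 fold changes were above 0 for 58 of 84 (69.0%) with a median of 0.13. Myomesin 2 (Myom2), which ties myosin at the M-line, was at 0.176, 0.224 and 0.19 FPKM in mAC_Mito 1, 2 and 3, against 0.118, 0.128 and 0.139 FPKM in mAC 1, 2 and 3. Filamin C (Flnc), an actin crosslinker of muscle that other cells also make, was at 5.26, 10.2 and 9.76 FPKM in mAC_Mito, against 5.5, 5.28 and 6.91 FPKM in mAC, where mAC_Mito 1 was level with mAC 1 and mAC 2. These were the 2 genes with an unadjusted p under 0.05. Their log2 fold changes were 0.60 (95% interval 0.068 to 1.13) and 0.48 (0.028 to 0.94), with a Benjamini-Hochberg adjusted p of 0.9999 for both in edgeR's test.

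By role, 0 of 13 further regulators and fusion genes, 0 of 7 junction genes, 0 of 8 thick filament, 0 of 10 thin filament, 0 of 26 scaffold and 0 of 20 calcium and energy genes were called. Tropomyosin 1 (Tpm1), the most abundant, was at 126, 118 and 119 FPKM in mAC_Mito, against 107, 118 and 114 FPKM in mAC. Its relative Tpm2 was at 71.9, 68.1 and 78.4 FPKM in mAC_Mito, against 59.5, 70.8 and 67.4 FPKM in mAC, and the small heat shock protein Cryab was at 50.3, 44.5 and 48.9 FPKM in mAC_Mito, against 49.6, 52.7 and 46.2 FPKM in mAC. These 3 genes are active in many cell types. The transcription factor Mef2d was at 8.21, 9.76 and 10.3 FPKM in mAC_Mito, against 10.6, 8.02 and 8.1 FPKM in mAC. The cofactor Vgll3 was at 10.5, 12.7 and 11.9 FPKM in mAC_Mito, against 12.5, 12 and 12.8 FPKM in mAC. Agrin (Agrn), the nerve signal for the junction, was at 2.93, 5.73 and 5.24 FPKM in mAC_Mito, against 3.46, 3.5 and 4.52 FPKM in mAC, and its receptor Lrp4 was at 0.83, 1.3 and 1.02 FPKM in mAC_Mito, against 0.762, 0.852 and 0.996 FPKM in mAC. For both, mAC_Mito 2 was highest. The muscle enolase Eno3 was at 9.01, 11 and 9.9 FPKM in mAC_Mito, against 6.89, 8.57 and 11.6 FPKM in mAC. The phosphofructokinase Pfkm was at 10.2, 15.1 and 14.4 FPKM in mAC_Mito, against 9.08, 11.9 and 13.7 FPKM in mAC. In scaled counts the groups overlapped for each of these.

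Most of the remaining genes named by rule were low. Megf10, a receptor of satellite cells, was at 0.134, 0.302 and 0.283 FPKM in mAC_Mito, against 0.0892, 0.134 and 0.19 FPKM in mAC. Smyd1, a methyltransferase needed for sarcomere assembly, was at 0.572, 0.439 and 0.316 FPKM in mAC_Mito, against 0.18, 0.341 and 0.421 FPKM in mAC. Csrp3, a LIM protein of the Z-disc, was at 0.272, 0.494 and 0.467 FPKM in mAC_Mito, against 0.152, 0.197 and 0.338 FPKM in mAC. Both Megf10 and Csrp3 were lowest in mAC 1 and higher in mAC_Mito 2 and 3 than in any mAC library, while mAC_Mito 1 lay inside the range of mAC. Parvalbumin (Pvalb), a calcium buffer of fast fibres, had 28, 19 and 53 counts in mAC_Mito, against 11, 14 and 26 in mAC. Triadin (Trdn), of the calcium release unit, had 39, 8 and 35 counts in mAC_Mito, against 6, 8 and 28 in mAC. For both, mAC_Mito 1 and 3 were the highest libraries. The tropomodulin Tmod1, which caps the thin filament, had 84, 60 and 107 counts in mAC_Mito, against 77, 47 and 21 in mAC. Klhl40, which stabilises thin filament proteins, had 12, 16 and 6 counts in mAC_Mito, against 5, 41 and 29 in mAC. Smpx, a small protein of muscle, had 141, 59 and 107 counts in mAC_Mito, against 142, 153 and 130 in mAC. These 3 had their extremes in different libraries. The light chain Myl6b was at 4.0, 3.0 and 3.45 FPKM in mAC_Mito, against 3.48, 3.61 and 3.77 FPKM in mAC. Beta-sarcoglycan (Sgcb), of the membrane complex, was at 8.13, 8.4 and 9.26 FPKM in mAC_Mito, against 8.27, 8.28 and 9.09 FPKM in mAC, with overlapping groups.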

How the data were processed

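Poly(A) RNA was sequenced in paired ends on an Illumina NovaSeq, per the labels' protocols. The authors deposited 1 table with a raw read count per gene and library, not normalized, and FPKM, counts per kilobase and depth computed by the authors, per the file headers. HISAT2 2.0, StringTie 1.3.0, Bowtie 0.12.2 and build mm8 are named without a role, per the submitters' processing notes, but 32 of 36 members have the bounds of GENCODE M21 on GRCm38, which is used for positions. Counting rule and strand setting were not given in the sources used here. FPKM implied a length of 1.15 to 1.22 times the exon union for 35 members with 20 or more counts in a library.

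The members, lists and tests were chosen with earlier results of these data known. Counts were filtered (filterByExpr, minimum count 10, minimum total 15), which left 17645 genes, scaled by TMM and tested with edgeR 4.0.16 in R 4.3.3 (quasi-likelihood, two-sided, Benjamini-Hochberg over all genes, threshold 0.05). Standard errors and 95% intervals follow from the F statistic. limma 3.58.1, DESeq2 1.42.0, other filters and left-out libraries were alternatives, and the fits were tested on simulated data. Log2 CPM used a prior count of 2. No 2 libraries agreed within sampling noise (lowest chi-square 23.6 per degree of freedom). Every member was accounted for. Members with a group mean of at least 0.5 FPKM, or 10 counts in 3 libraries, have values per library. For each further muscle list the 2 highest by FPKM and the 2 lowest by p are named. Others were chosen after their values were seen (Mymx, Chrng, Chrne, Dmd, Mb, Sgca, Nppb, Adipoq, Fabp4, Acta2, Ube2c, Adora1 and Rabep2).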

Additional observations from a re-analysis of the deposited data

How the results depend on the processing

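In every alternative 0 members and 0 of the other muscle genes were called, and the lowest adjusted p of a member was 0.649. Without mAC 3, 7 members had an unadjusted p under 0.05 in edgeR, against 2 with all libraries. Over all genes this was 773 of 18157 without mAC 3, against 563 of 17645 with all libraries. The count of genes called over the transcriptome, 2, was 5 with DESeq2, 0 with limma on log2(FPKM + 1), 1 on log2(FPKM + 0.1), 0 with no filter (760 genes at an unadjusted p under 0.05), and 0 to 4 with 1 library left out. The median log2 fold change of the members ran from 0.036 (without mAC_Mito 1) to 0.28 (without mAC_Mito 2), and the difference of the mean levels from 0.029 (without mAC 1) to 0.25 (without mAC 3), against 0.16 with all libraries and a within-group SD of 0.19. Correlations showed no clear pairing of the libraries by replicate number. For same-numbered deviations from the group means, over 17645 genes, they were 0.124, -0.06 and -0.012. mAC_Mito 1 went best with mAC 1, and mAC_Mito 2 with mAC 3 (0.154). Deviations sum to 0 within each group, so this check cannot settle whether the libraries were paired. With the replicate block 2 genes and 0 members were called, Musk turned to 0.081 and Myh2 to -0.39; on log2(FPKM + 0.1) Musk was at 0.0026. The cause was not tested. With 1 library left out, 14 of 34 members kept their sign in each fit, 13 of them above 0, and 20 turned in at least 1. Their log2 ranges were -0.090 to 0.22 for Actc1, -0.27 to 0.17 for Atp2a1, -0.31 to 0.12 for Casq2, -0.078 to 0.63 for Cdh15, -0.12 to 0.17 for Chrna1, -0.43 to 0.16 for Chrnd, -0.51 to 0.40 for Musk, -0.079 to 0.25 for Mybph, -2.1 to 0.67 for Myf6, -1.2 to 0.74 for Myh2, -0.65 to 0.098 for Myh7, -0.042 to 0.32 for Myl1, -0.17 to 0.28 for Mymk, -0.38 to 0.59 for Myod1, -0.057 to 0.30 for Tnnc1, -0.13 to 0.38 for Tnni1, -0.087 to 0.26 for Tnnt1, -0.076 to 0.28 for Tnnt2, -0.080 to 0.090 for Tnnt3, -0.042 to 0.47 for Ttn. Those of the other 14 were 0.21 to 0.48 for Acta1, 0.70 to 1.5 for Ckm, 0.21 to 0.55 for Des, 0.24 to 0.57 for Myh1, 0.073 to 0.29 for Myh3, 0.49 to 0.57 for Myh8, 0.084 to 0.64 for Myl4, 0.017 to 0.70 for Mylpf, 0.071 to 0.40 for Myog, 0.25 to 0.66 for Neb, -0.58 to -0.10 for Rapsn, 0.32 to 0.65 for Ryr1, 0.32 to 0.69 for Tnnc2, 0.12 to 0.34 for Tnni2. Depth limits the lowest members: Myf5, Myf6, Myh2 and Myh4 had 0 counts in at least 1 library, which allows up to 3 counts there and covers counting error only.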

Other observations

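Further genes of the junction and the membrane were read for their levels. The acetylcholine receptor of embryonic muscle carries a gamma subunit, which the epsilon subunit replaces in adult muscle. The gamma gene Chrng had 84, 98 and 87 counts in mAC_Mito 1, 2 and 3, against 55, 140 and 66 counts in mAC 1, 2 and 3, and the epsilon gene Chrne had 0, 3 and 2 counts in mAC_Mito, against 0, 0 and 0 in mAC, with 0 in 4 libraries. The beta subunit Chrnb1 was at 1.44, 1.47 and 1.72 FPKM in mAC_Mito, against 1.31, 1.52 and 1.29 FPKM in mAC. Dystrophin (Dmd), which links actin to the membrane, had 190, 139 and 128 counts in mAC_Mito, against 139, 205 and 177 in mAC. Myoglobin (Mb), the oxygen store of muscle, was at 11.5, 7.05 and 8.45 FPKM in mAC_Mito, against 5.49, 9.47 and 9.66 FPKM in mAC, lowest in mAC 1 and highest in mAC_Mito 1. Chrne was too low to test, and 0 of the other 4 genes passed edgeR's test over all genes.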
